A study of Mus musculus with 9 samples.

Results

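The genes described here are 10 members of the Notch signalling pathway measured in cultured mouse cortical neurons, namely the receptors Notch1, Notch2 and Notch3, the ligands Dll1 and Jag1, and the Hes and Hey transcription factors Hes1, Hes5, Hes6, Hey1 and Hey2. They were chosen with results of these arrays in view, because Hes5 was among the largest falls under KCl while Hes1 was higher there, and their probes were found through the RefSeq accession that the scanner files give for each probe. This gave 14 of the 26888 probes that could be named and 10 of the 18327 genes with a named probe. Neurons were taken from C57bl/6 embryos at embryonic day 15 and kept in culture for 12 days. One group received 25 µM bicuculline (Bic), which blocks GABA-A receptors and so releases network firing. Another received 50 mM KCl, which depolarises the membrane directly. Both exposures lasted 6 h, and the control neurons had no treatment. Every group is represented by 3 samples with numbers 1 to 3, and each was hybridised to an array of its own. The labels give no genetic alteration in any group and do not say whether the 3 samples of a group came from separate cultures, so the p-values measure the spread between these samples, which may be technical.

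Notch receptors are cut at the membrane when a ligand of the Delta or Jagged families on a neighbouring cell binds them, and the freed intracellular part enters the nucleus. There it joins the DNA-binding protein RBPJ and Mastermind coactivators and switches on target genes, of which the Hes and Hey genes are the best known. Hes1, Hes5, Hey1 and Hey2 encode basic helix-loop-helix repressors that hold neural progenitors back from becoming neurons by repressing proneural genes, while Hes6 opposes Hes1 and favours neuronal differentiation. In the cortex Hes5 and Hes1 mark radial glia and later astrocytes, and neurons also carry Notch1 and Jag1.

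Promoter windows of 8 of the 10 genes were found in the RefSeq table (build GRCm38.p6), each running from 250 bases before to 50 bases from the start on. No window was available for Hes1 and Hey1, so their promoters were not searched. The RBPJ core TGGGAA, read on both strands, was present in the windows of Hes5 and Hey2 and in no other of the 10 windows of these 8 genes, against 25.6% of all 32851 promoter windows of the same length. These 2 windows are shown because they hold the core, in a gene that fell and a gene that rose under Bic. The Hes5 window is chr4:154960673-154960972 on the plus strand, and the Hey2 window is chr10:30842734-30843033 on the minus strand. The Hes5 window belongs to a start that lies inside the span listed for the gene. Both are written 5′ to 3′ along the gene, and capitals mark the RBPJ core or its reverse complement.
Hes5: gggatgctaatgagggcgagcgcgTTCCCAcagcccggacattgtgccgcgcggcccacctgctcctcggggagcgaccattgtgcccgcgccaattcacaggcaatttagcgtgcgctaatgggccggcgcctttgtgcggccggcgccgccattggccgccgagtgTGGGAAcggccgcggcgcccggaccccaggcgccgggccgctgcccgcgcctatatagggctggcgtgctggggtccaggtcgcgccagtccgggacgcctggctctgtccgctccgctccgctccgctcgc
Hey2: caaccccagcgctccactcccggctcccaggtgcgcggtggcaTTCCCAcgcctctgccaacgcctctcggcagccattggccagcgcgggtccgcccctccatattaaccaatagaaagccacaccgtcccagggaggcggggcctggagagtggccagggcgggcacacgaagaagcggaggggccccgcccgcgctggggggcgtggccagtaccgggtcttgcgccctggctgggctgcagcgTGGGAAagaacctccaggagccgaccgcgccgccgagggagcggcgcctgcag
Positions are counted along the gene from the start, with -1 as the last base before it. In Hes5 the reverse complement begins at -226 and the core at -82. In Hey2 the reverse complement begins at -207 and the core at -3. The N box CACNAG, a class of site that Hes proteins bind, was found in 5 of the 10 windows against 42.5% of all windows, and the E box CANNTG, bound by proneural factors, in 7 of 10 against 72.3%. The CRE half-site TGACG, the core of the sequence that CREB binds, was found in 2 of 10 windows, those of Jag1 and Notch3, against 20.8% of all. No stretch of letters can match 2 of these 4 motifs in full, though matches may share bases at their ends. A match of letters is a description of the window and was not tested as a binding site.

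Levels are given as log2 of the background-subtracted probe signal minus the log2 of that array's 75th percentile, so that a level of 0 equals the 75th percentile and 1 unit is a doubling. Levels of different genes come from different probes and are not set against each other. The 75th percentile was 1805, 1995 and 2049 signal units on the Bic arrays, 1679, 1628 and 1586 on the KCl arrays and 3087, 1804 and 2634 on the control arrays. The share of spots well above background ranged from 65.0% to 75.9%, and no spot was saturated. The probe standing for each of the 10 genes was well above background on all 9 arrays. Those of Hes1 and Hey2 were nonetheless faint, with control means of -4.50 and -4.01. Their KCl changes depended on the background correction, as given below. The arrays lay on 3 slides: slide 1 held Bic 1 and 2 and control 1 and 2, slide 2 held Bic 3, KCl 1 and 2 and control 3, and slide 3 held KCl 3 alone. Between the groups, changes were fitted with limma over 14063 genes. Since KCl against control chose the members, their values on KCl arrays are given with the standard error of the fit (SE) and no test. Bic against control was tested, but shares its control arrays with the comparison that chose them.

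Under Bic, 2 of the 10 genes rose (Hey2 and Hes1), 7 fell (Hes5, Jag1, Dll1, Hey1, Notch3, Hes6 and Notch2) and Notch1 did not pass the test (limma, adjusted p under 0.05). Of all 14063 genes, 44.4% were called in this comparison, 17.4% higher and 27% lower. With normexp background correction 1 of the 10 genes was called (Hes5) and 823 of all genes, and with spike-in scaling 2 were called (Hes5 and Hey2) and 2503 of all genes. The 3 Bic arrays and the 3 control arrays did not overlap for any of the 10 genes, 3 of which were higher and 7 lower, where 56.9% of all genes showed no overlap (22.1% higher and 34.8% lower). The median log2 change was -0.22 over the 10 genes, against -0.03 over all genes tested. Under KCl, 6 of the 10 genes had means above control and 4 below, with a median log2 change of 0.14 against 0.02 over all genes, of which 52% had means above control. The KCl and control arrays did not overlap for 9 of the 10 genes, 5 higher and 4 lower, beside 74.8% of all genes (37.2% higher and 37.6% lower). The KCl and Bic arrays did not overlap for 7 of the 10 genes, 5 higher and 2 lower under KCl, beside 70% of all genes (39.6% higher and 30.4% lower). Since the members were picked on KCl arrays, nothing is read from these 2 counts. Fewer cells of a type and less RNA per cell cannot be told apart in these whole cultures.

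**Figure D1:**
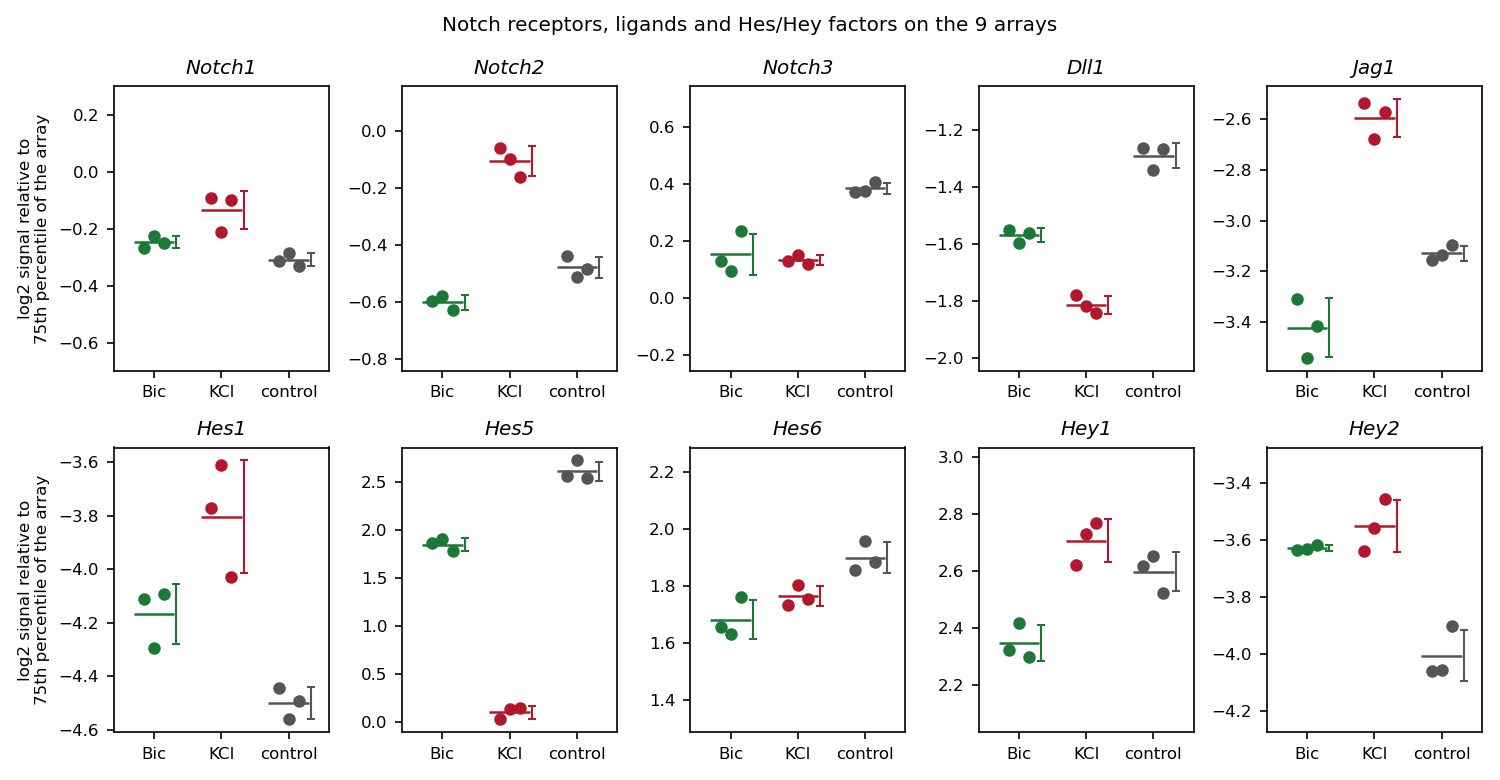
Log2 level of each of the 10 genes (y axis, relative to the 75th percentile of the array) on the 3 Bic, 3 KCl and 3 control arrays (x axis), 1 point per array with the group mean as a line, the SD as a bracket (n = 3) and 1 panel per gene with its own y range. Hes5 lies between 0.02 and 0.14 on the KCl arrays, between 1.78 and 1.91 on the Bic arrays and between 2.55 and 2.73 on the control arrays, with no overlap between groups.

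Hes5 (chromosome 4, 154960626 to 154962372, GRCm38.p6), a repressor induced by Notch in cortical progenitors, had the lowest values on KCl arrays. Its log2 level was 1.86, 1.91 and 1.78 on the Bic arrays, 0.02, 0.13 and 0.14 on the KCl arrays, and 2.57, 2.73 and 2.55 on the control arrays. The means were 1.85 ± 0.07 under Bic, 0.10 ± 0.07 under KCl and 2.62 ± 0.10 in control (SD, n = 3 each). All Bic arrays lay below all control arrays, and all KCl arrays lay below both. Hes5 fell under Bic by 0.76 on the log2 scale (SE 0.06), which is 1.70-fold lower, with an adjusted p of 3.71e-05 (limma). Ordered from the lowest change under Bic, Hes5 was at rank 194 of 14063 genes. Against control, KCl gave a log2 change of -2.51 (SE 0.06), 5.72-fold lower, rank 3 from the lowest of all genes tested and the value for which Hes5 was picked. Against Bic, KCl gave -1.75 (SE 0.06), 3.36-fold lower. Within slide 1 the Bic minus control difference was -0.76 and within slide 2 it was -0.77, and on slide 2 KCl minus control was -2.47. Hes5 was called lower under Bic in all 22 settings of the processing, with log2 changes between -0.80 and -0.71.

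Hes1 (chromosome 16, 30065357 to 30067796), the repressor whose own expression oscillates in dividing neural progenitors, moved the other way. The Hes1 probe read -4.11, -4.29 and -4.09 on the Bic arrays, -3.77, -3.61 and -4.03 on the KCl arrays, and -4.44, -4.56 and -4.49 on the control arrays (log2 level). Every Bic and KCl array lay above every control array. Hes1 rose under Bic by a log2 change of 0.33 (SE 0.10), 1.26-fold, with an adjusted p of 0.0324 (limma). Under KCl its log2 change against control was 0.70 (SE 0.10), 1.62-fold, and against Bic it was 0.36 (SE 0.10). With normexp these 2 values were 1.24 and 1.06, with quantile 0.48 and 0.19, and with spike-in scaling 0.47 and 0.14. The call under Bic was the least stable of the 9: it was lost in 10 of 22 settings, including the fit with the replicate number as a block over all 9 arrays (adjusted p = 0.0626, limma) and the fits without control 1, 2 or 3, Bic 1 or Bic 3 (adjusted p between 0.0575 and 0.0981; 0.00599 to 1.00 over all settings).

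Hey2 (chromosome 10, 30832359 to 30842783), known from heart and vessel development and also expressed in neural progenitors, rose under Bic. Log2 levels were -3.63, -3.63 and -3.62 on the Bic arrays, -3.64, -3.56 and -3.45 on the KCl arrays, and -4.06, -4.06 and -3.90 on the control arrays. Both treatments lay above control on every array, and the Bic and KCl arrays overlapped. The log2 change was 0.38 under Bic (SE 0.06, adjusted p = 0.00121, limma) and 0.46 under KCl (SE 0.06), where it was 0.23 with spike-in scaling and 1.098 with normexp. KCl minus Bic was 0.08 (SE 0.06), turned to -0.070, -0.046 and -0.15 with quantile, median and spike-in scaling, and was 0.86 with normexp, under which the call under Bic was lost.

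Hey1 (chromosome 3, 8663359 to 8667038), a Hey repressor expressed in embryonic cortex, fell under Bic. The 3 Bic arrays read a log2 level of 2.32, 2.42 and 2.30, beside 2.62, 2.73 and 2.77 on the KCl arrays and 2.62, 2.65 and 2.52 on the control arrays. The Bic arrays lay below all others, and the KCl and control arrays overlapped. The log2 change under Bic was -0.25 (SE 0.05, adjusted p = 0.00686, limma), a call lost with normexp and spike-in scaling. Against control, KCl gave 0.11 (SE 0.05), a sign that turned with normexp background correction (-0.017), median scaling (-0.051) and spike-in scaling (-0.12).

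Hes6 (chromosome 1, 91411483 to 91414038), the member that favours neuronal differentiation, had small changes. The log2 levels of Hes6 were 1.66, 1.63 and 1.76 on the Bic arrays, 1.73, 1.80 and 1.75 on the KCl arrays, and 1.85, 1.96 and 1.88 on the control arrays. Both treatments lay below control, and overlapped with each other. Hes6 fell under Bic by 0.22 on the log2 scale (SE 0.05, adjusted p = 0.0056, limma), and the KCl change was -0.13 (SE 0.05), or -0.20, -0.29 and -0.36 with normexp, median and spike-in scaling. The call under Bic was lost with normexp and spike-in scaling. A second Hes6 probe gave -0.26 under Bic and 0.01 under KCl (SE 0.07 for each). The 2 probes thus had the same sign under Bic, while under KCl the arrays of the second probe overlapped control.

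Among the receptors, Notch1 (chromosome 2, 26457902 to 26503822), a receptor of cortical progenitors, did not pass the test under Bic. Log2 levels of -0.27, -0.22 and -0.25 on the Bic arrays, -0.09, -0.21 and -0.10 on the KCl arrays, and -0.31, -0.28 and -0.33 on the control arrays were read. The groups are close together, although no Bic array overlaps a control array. The change under Bic was 0.06, with a 95% interval of -0.03 to 0.15 and an adjusted p of 0.242 (limma). Under KCl it was 0.17 (SE 0.04), turning to -0.051 with spike-in scaling.

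Notch2 (chromosome 3, 98013538 to 98150367), a receptor close to Notch1 in structure, differed in direction between the treatments. The brightest probe had log2 levels of -0.60, -0.58 and -0.63 on the Bic arrays, -0.06, -0.10 and -0.16 on the KCl arrays, and -0.44, -0.51 and -0.48 on the control arrays. The Bic arrays were the lowest and the KCl arrays the highest, with no overlap. The log2 change was -0.12 under Bic (SE 0.04, adjusted p = 0.0277, limma) and 0.37 under KCl (SE 0.04), or 0.21 and 0.15 with median and spike-in scaling. A second Notch2 probe, also well above background on all 9 arrays, gave 0.20 under Bic and 0.69 under KCl. A further Notch2 probe was well above background on 3 KCl arrays, 1 Bic array and 1 control array. It gave 0.23 under Bic and 0.81 under KCl (SE 0.42 for each), with arrays that overlapped control in both. The probe standing for the gene was thus the only one below control under Bic. The mean of all the Notch2 probes gave 0.10 there (adjusted p = 0.58, limma). Under KCl all of them were above control. With the replicate number as a block over the Bic and control arrays the adjusted p was 0.0525 (limma), and over all settings it was 0.0203 to 0.58. The call was also lost with normexp, median and spike-in scaling (adjusted p = 0.406, 0.0733 and 0.465, limma), and without Bic 1, Bic 3, control 1 or control 3.

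Notch3 (chromosome 17, 32120820 to 32166896), best known as the receptor of vascular mural cells, was lower under both treatments. The Notch3 log2 level was 0.13, 0.10 and 0.24 on the Bic arrays, 0.13, 0.15 and 0.12 on the KCl arrays, and 0.37, 0.38 and 0.41 on the control arrays. Both treatments lay below control on every array and overlapped each other. Notch3 fell under Bic by 0.23 on the log2 scale (SE 0.04, adjusted p = 0.00209, limma), and the KCl change was -0.25 (SE 0.04), or -0.41 and -0.48 with median and spike-in scaling. The call under Bic was lost with normexp and spike-in scaling.

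The ligands parted. Dll1 (chromosome 17, 15367354 to 15376932), the Delta ligand that newborn neurons present to progenitors, was lower under both treatments. Its log2 level was -1.55, -1.60 and -1.56 on the Bic arrays, -1.78, -1.82 and -1.84 on the KCl arrays, and -1.26, -1.34 and -1.27 on the control arrays. The 3 groups form steps without overlap, with KCl lowest and control highest. Dll1 fell under Bic by 0.28 (SE 0.03, adjusted p = 0.000344, limma) on the log2 scale, and the KCl change was -0.52 (SE 0.03), which shrank to -0.15 with normexp correction. The call under Bic was lost with normexp and spike-in scaling.

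Jag1 (chromosome 2, 137081451 to 137116520), a Jagged ligand, was lower under Bic and higher under KCl. Its log2 level was -3.31, -3.54 and -3.41 on the Bic arrays, -2.54, -2.68 and -2.57 on the KCl arrays, and -3.15, -3.14 and -3.10 on the control arrays. No array of one group overlapped another group. The log2 change was -0.29 under Bic (SE 0.06, adjusted p = 0.00645, limma), 0.53 under KCl (SE 0.06), and 0.82 for KCl against Bic (SE 0.06), which 95.1% of all genes lay at or below. The KCl change was 0.92 with normexp and 0.31 with spike-in scaling, and the call under Bic was lost with both. A second Jag1 probe was well above background on 1 Bic array, 1 KCl array and no control array, and gives no usable change.

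**Figure D2:**
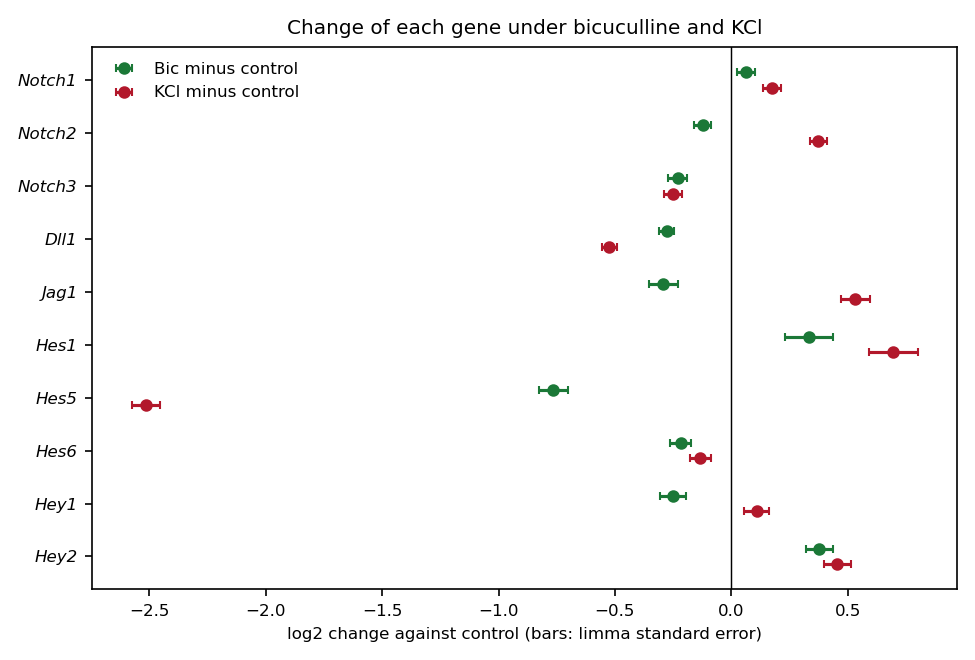
Log2 change against control (x axis) of the 10 genes (y axis) under Bic and under KCl, with bars for the limma standard error. Hes5 lies at -0.76 under Bic and -2.51 under KCl, and Notch2, Jag1 and Hey1 lie on opposite sides of 0 under the 2 treatments, Hey1 turning below 0 under KCl with normexp, median and spike-in scaling.

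Thus 3 genes, Notch2, Jag1 and Hey1, had means below control under Bic and above it under KCl. Exceptions were the settings named for Hey1, the other Notch2 probes and the mean of the Notch2 probes. Within slides, each of the 10 genes kept the sign of its overall change in all 4 comparisons that a slide allows. These are Bic against control on slides 1 and 2, and KCl against control and against Bic on slide 2. Where the arrays of 2 groups do not overlap, that sign was fixed in advance. This held for every gene under Bic, for all but 1 for KCl against control and for all but 3 for KCl against Bic. Nothing is read from this agreement. The choice of scaling moved the median of all genes under KCl: the median change of all genes was 0.02 with the 75th percentile, 0.08 with normexp, -0.06 with quantile, -0.14 with median and -0.20 with spike-in scaling. Set against that median, Hes5 was at -2.54 under KCl with the 75th percentile, median and spike-in scaling alike, and between -2.55 and -2.47 with normexp and quantile. Hey1 relative to it was 0.08 under the 3 scalings by 1 factor per array, 0.11 with quantile and -0.10 with normexp. Hes1 was 0.67 under the 3 scalings by 1 factor, 0.54 with quantile and 1.16 with normexp.

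**Figure D3:**
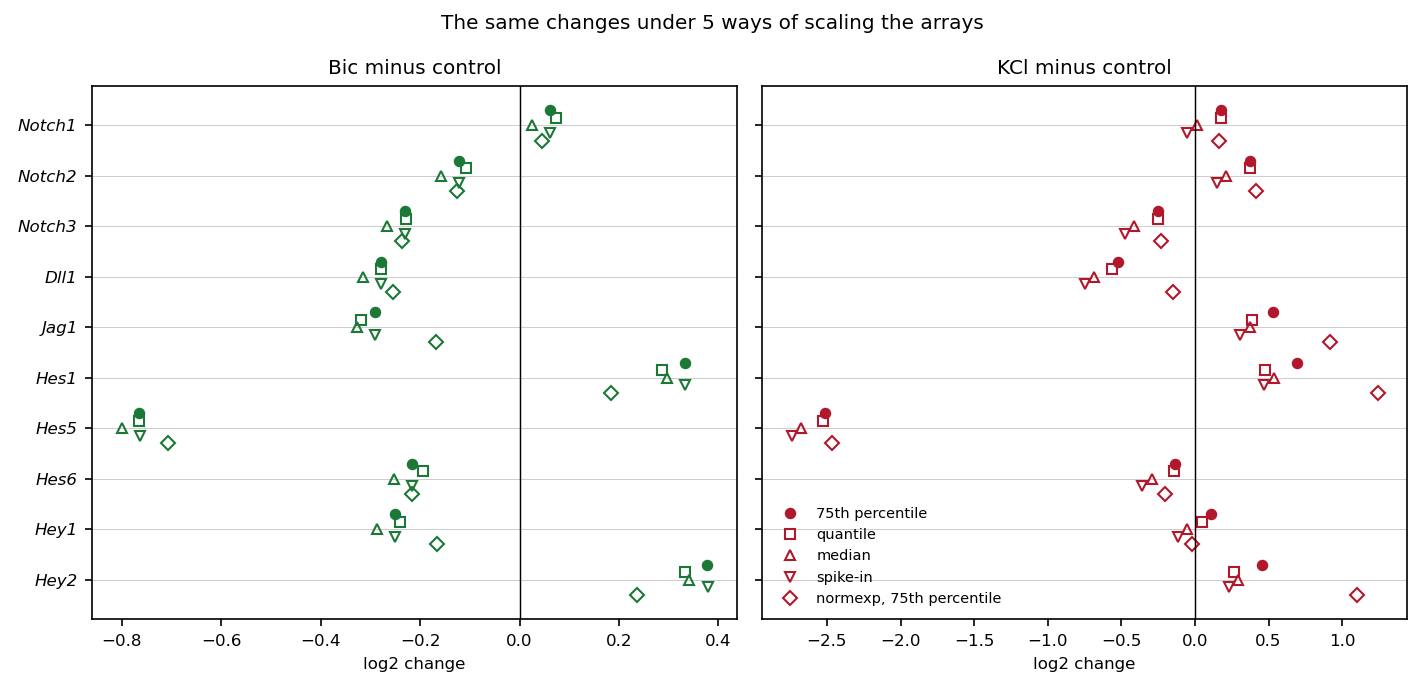
Log2 change of each of the 10 genes against control under Bic and KCl (x axis), as given by each way of scaling the arrays and correcting the background (symbols), with 1 line per gene (y axis). Hes5 stays between -2.74 and -2.46 under KCl, while Hey1 and Notch1 cross 0 there.

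The other genes of the pathway came from 7 lists of 83 genes, of which 69 were tested. Under Bic 13 rose, 20 fell and 36 did not pass, so 47.8% were called beside 44.4% of all genes, with a median change of -0.02. Under KCl 31 rose, 23 fell and 15 did not pass, 78.3% beside 71.8% of all genes (35.8% higher and 36% lower), with a median of 0.10. KCl against Bic gave 31 higher and 17 lower, 69.6% beside 64.9% of all genes (36.1% higher and 28.8% lower). Its balance depended on the scaling, with 21 higher and 21 lower by quantile, 19 and 22 by median and 10 and 24 by spike-in scaling. Normexp called 4 pathway genes under Bic, 18 under KCl and 15 for KCl against Bic. Of the pathway genes named below, it kept the Bic calls of Numb, Dtx2 and Dtx4 and the KCl calls of Numb, Mib1, Dtx4, Ccn3, Psen2, Aph1b, Poglut1 and Maml3, and the other calls given for them were lost with it. In all, 11 genes rose and 15 fell under both treatments, and 3 were called in opposite directions. The treatments share their control arrays, so these counts are not independent.

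The largest rise among pathway genes was that of Numb, an adaptor that antagonises Notch in dividing progenitors. Numb read -2.19, -2.19 and -2.13 on the Bic arrays, -1.05, -0.95 and -0.88 on the KCl arrays, and -2.96, -3.02 and -2.91 on the control arrays on the log2 level scale, with no overlap. The log2 change was 0.79 under Bic (adjusted p = 1.05e-05, limma) and 2.00 under KCl (SE 0.05, adjusted p = 3.82e-08, limma), 4.00-fold, and a second Numb probe gave 0.57 and 2.16. Mib1, the ubiquitin ligase that lets ligands be taken up by the sending cell, had log2 levels of -1.60, -1.58 and -1.45 on the Bic arrays, -0.80, -0.79 and -0.71 on the KCl arrays, and -1.99, -1.88 and -1.89 on the control arrays. It rose by 0.38 under Bic and 1.16 under KCl. Among the 12 tested genes of ligand uptake, trafficking and turnover, 5 rose, 5 fell and 2 did not pass under Bic, and 5 rose, 4 fell and 3 did not pass under KCl. Dtx4, a Deltex ubiquitin ligase, fell by 0.70 under Bic and by 0.61 under KCl, but its other probes gave 0.06 and -0.63 under Bic and 0.68 and -0.75 under KCl. Dtx2, another Deltex gene, rose by 0.35 under Bic, a call lost with spike-in scaling (adjusted p = 0.0547, limma). Dtx2 fell by 0.20 under KCl, where the call was lost with the slide as a block (adjusted p = 0.0507, limma). Over all settings that adjusted p was 0.0008 to 0.0766 (limma). Neurl1a, a ubiquitin ligase of the Neuralized family, fell by 0.15 under Bic, a call lost with spike-in scaling (adjusted p = 0.347, limma). Neurl1a rose by 0.16 under KCl, which shrank to 9.7e-05 with median scaling and turned to -0.066 with spike-in scaling.

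Of the 9 other receptors and ligands tested, 1 rose, 3 fell and 5 did not pass under Bic, and 3 rose, 3 fell and 3 did not pass under KCl. Jag2, the second Jagged ligand, fell. The Jag2 log2 level was -1.29, -1.28 and -1.36 on the Bic arrays, -2.07, -1.93 and -1.94 on the KCl arrays, and -0.91, -0.95 and -0.95 on the control arrays. The changes were -0.37 under Bic (adjusted p = 0.000365, limma) and -1.04 under KCl (adjusted p = 4.34e-07, limma), and -0.30 (adjusted p = 0.661, limma) and -0.53 (adjusted p = 0.111, limma) with normexp. Except with normexp, Jag2 fell under KCl, where the mean of Jag1 was above control. Cntn6, a contactin reported as a Notch ligand, fell by 0.26 and 0.51 under Bic and KCl, and Ccn3, a secreted matrix protein that binds Notch1, fell by 0.41 and 0.24. With normexp the KCl change of Cntn6 was -0.22, and that of Ccn3 was -0.39 there and -0.47 with spike-in scaling.

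Of 8 genes of receptor processing and cleavage, 2 fell and 1 rose under Bic, and 5 fell and 2 rose under KCl. Psen2, a catalytic subunit of gamma-secretase, fell by 0.19 under Bic and by 0.47 under KCl. Aph1c, a gamma-secretase subunit close in sequence to Aph1b, fell by 0.43 and 0.55, the second of which turned to 0.48 with normexp. Aph1b itself had a change of 0.01 under Bic, which did not pass, and fell by 0.55 under KCl, where its other probes gave -0.52 and 0.43. Probes of the Aph1b and Aph1c pair may read each other's RNA. Of 4 glycosylation genes, 2 passed under Bic and 3 under KCl. Poglut1, which adds glucose to Notch, fell by 0.30 and 0.87. Mfng, a Fringe enzyme that changes which ligands Notch answers to, had a change of 0.05 under Bic, which did not pass, and rose by 0.72 under KCl, and Rfng, another Fringe, rose by 0.18 (passing in 14 of 22 settings) and 0.40. Under KCl Mfng was 1.22 with normexp (adjusted p = 0.102, limma), and Rfng was 0.95 with normexp (adjusted p = 0.128, limma) and 0.18 with spike-in scaling (adjusted p = 0.168, limma).

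Of 22 genes of the nuclear complex, 3 rose and 6 fell under Bic, and 11 rose and 6 fell under KCl. Maml3, a Mastermind coactivator, had log2 levels of -4.74, -4.61 and -4.53 on the Bic arrays, -3.57, -3.21 and -3.62 on the KCl arrays, and -4.83, -5.42 and -5.18 on the control arrays. It rose by 0.51 under Bic (adjusted p = 0.0326, limma; 0.0603 with the replicate number as a block over the Bic and control arrays, and 0.0094 to 1.00 over all settings) and by 1.67 under KCl (adjusted p = 3.37e-05, limma). Maml2, its relative, fell by 0.13 under Bic (adjusted p = 0.0393, limma), a call that passed in 10 of 22 settings. The adjusted p was 0.0638 with that block and 0.0276 to 0.904 over all settings (limma). Under KCl Maml2 rose by 0.19, which turned to -0.036 with spike-in scaling. A second Maml2 probe, well above background on all 9 arrays, gave 0.00 under Bic and 0.32 under KCl. Rbpjl, a relative of RBPJ best known from the pancreas, had a change of 0.08 under Bic, which did not pass, and rose by 1.04 under KCl, with its probe well above background on 2 of the 3 control arrays. Hdac2, a histone deacetylase found in corepressor complexes, fell by 0.43 and 0.66, values that were -0.36 (adjusted p = 0.867, limma) and -0.052 (adjusted p = 0.926, limma) with normexp.

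Of the other Hes and Hey family genes and direct targets, 3 of 6 were tested. Hes2 had a change of 0.26 under Bic, which did not pass, and rose by 1.06 under KCl. A second Hes2 probe, well above background on all 9 arrays, gave -0.04 under Bic and 0.73 under KCl. Hes2 passed under Bic in 2 of 22 settings. These were the slide block (adjusted p = 0.0152, limma) and the replicate block over the Bic and control arrays (adjusted p = 0.0285, limma). The adjusted p was 0.0152 to 1.00 over all settings (limma). Helt, a Hes-related repressor of the midbrain, rose by 0.59 and 0.55, the second of which was lost with quantile and spike-in scaling and with the slide block. Hes3 and Heyl were not well above background on any array.

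Of 11 proneural factors tested, 1 rose, 3 fell and 7 did not pass under Bic, and 6 rose, 3 fell and 2 did not pass under KCl. Neurod1, a driver of neuronal differentiation, fell by 0.79 under Bic (adjusted p = 5.43e-05, limma) and by 0.68 under KCl, which turned to 0.17 with normexp. Neurod2, a factor of maturing cortical excitatory neurons, had log2 levels of 1.41, 1.48 and 1.44 on the Bic arrays, 2.13, 2.21 and 2.26 on the KCl arrays, and 2.08, 2.16 and 2.10 on the control arrays. It fell under Bic by 0.67 (adjusted p = 1.13e-05, limma), and its change of 0.09 under KCl did not pass. Neurod2 passed under KCl in 2 of 21 settings. These were the mean of probes (0.14, adjusted p = 0.0401, limma) and the fit without KCl 1 (0.13, adjusted p = 0.0256, limma). A second Neurod2 probe, well above background on all 9 arrays, gave -0.66 under Bic and 0.18 under KCl.

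**Figure D4:**
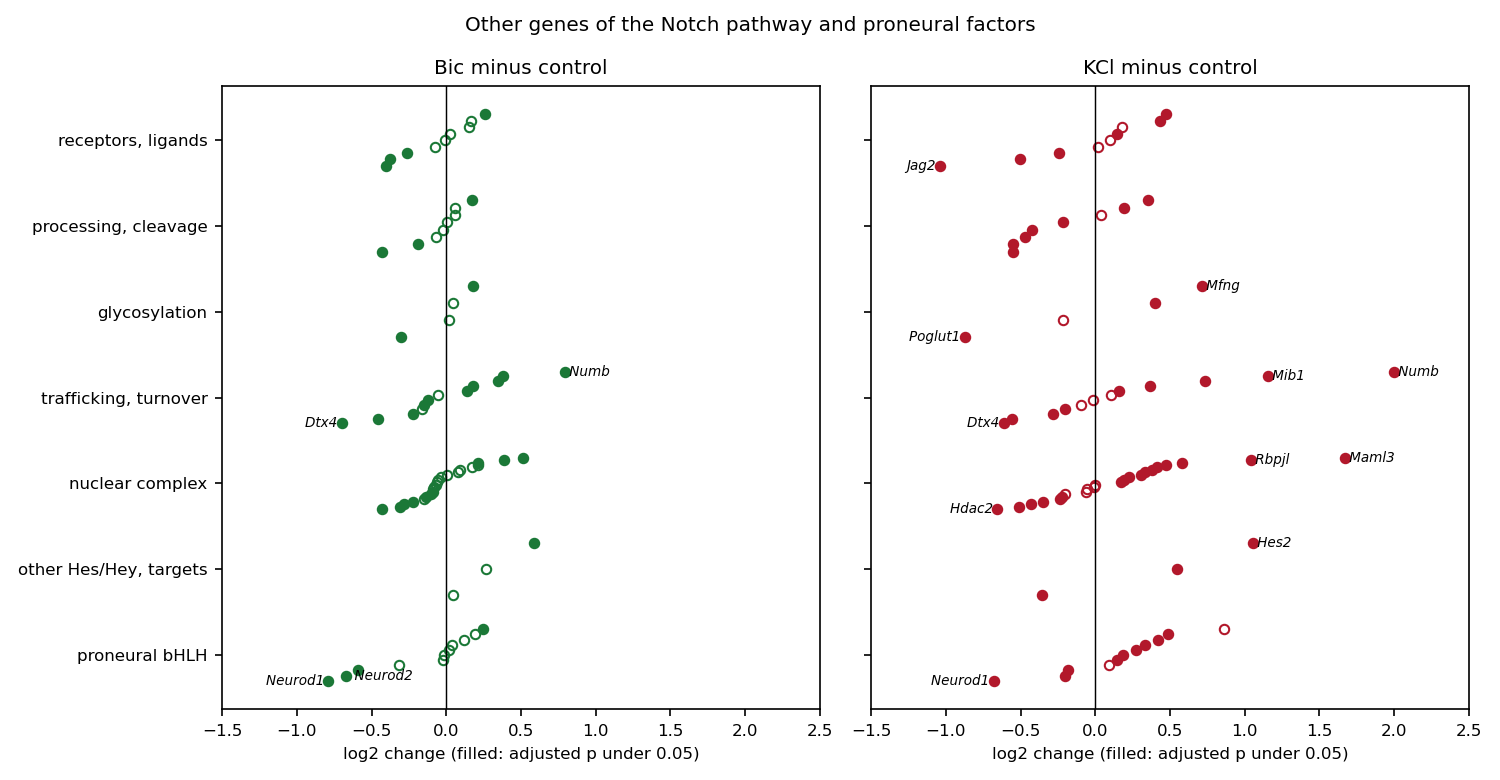
Log2 change against control (x axis) of 69 other genes of the Notch pathway and proneural factors under Bic (left) and KCl (right), grouped by role (y axis), with filled points for an adjusted p under 0.05 and names for the genes with the largest changes. Numb has the highest change in both panels, 0.79 under Bic and 2.00 under KCl.

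Markers of the cells that carry Notch targets were read on the same arrays. Summed over the 10 astrocyte markers, the level was 153 to 156 on the Bic arrays, 174 to 183 on the KCl arrays and 153 to 166 on the control arrays, in units of the array's 75th percentile. Of these 10 genes, none rose and 4 fell under Bic, and 4 rose and 2 fell under KCl, with Gfap 0.66 higher and Gjb6 0.69 lower. The summed level of the 9 tested markers of radial glia and progenitors was 116 to 125 on the Bic arrays, 151 to 163 on the KCl arrays and 114 to 126 on the control arrays, with 3 lower under Bic and 7 higher and 2 lower under KCl. These sums depended on the scaling: relative to the control mean, the astrocyte sum on KCl arrays was 1.08 to 1.13 (control 0.950 to 1.03) with the 75th percentile, 0.953 to 1.06 (0.974 to 1.04) with median scaling, 0.904 to 0.950 (0.976 to 1.02) with quantile, 0.893 to 0.997 (0.938 to 1.06) with spike-in scaling and 0.758 to 1.16 (0.924 to 1.06) with normexp. The progenitor sum on KCl arrays stayed above that of all control arrays with median, quantile and spike-in scaling, at 1.03 or more, and overlapped it with normexp. The 10 markers of cycling cells summed to 24.1 to 24.4, 22.3 to 22.4 and 22.3 to 22.9 on the Bic, KCl and control arrays, with 1 higher (Pcna) and 5 lower under Bic and 1 higher and 8 lower under KCl. Relative to the control mean, the cycling sum on KCl arrays was 0.929 to 0.942 (control 0.990 to 1.01) with quantile. It was 0.848 to 0.929 (0.950 to 1.03) with median and 0.822 to 0.869 (0.932 to 1.11) with spike-in scaling. With normexp it was 0.820 to 0.982 (0.983 to 1.01). KCl thus lay below every control array with each of these, but overlapped control with the 75th percentile. The 8 tested markers of mural cells and fibroblasts, to which Notch3 belongs by its known site, summed to 27.6 to 30.1 on the Bic arrays, 48.0 to 52.1 on the KCl arrays and 28.2 to 29.5 on the control arrays, with 3 lower under Bic and 6 higher and 1 lower under KCl. Tagln, which rose by 1.27, made up much of that sum. Without it the list summed to 16.6 to 17.1 on the Bic arrays, 20.7 to 20.9 on the KCl arrays and 16.6 to 16.8 on the control arrays. The median change of the list under KCl was 0.30, and Col1a1 fell by 0.52. Of 9 oligodendrocyte lineage markers tested, 1 rose and 5 fell under Bic and 6 rose and 2 fell under KCl, and of 7 microglia and macrophage markers none passed under Bic and 4 rose under KCl. The endothelial markers Pecam1, Cdh5 and Tie1 were not well above background on any array, and of the 4 others tested 2 rose under KCl and none passed under Bic. All 10 neuronal markers passed the background filter. They summed to 140.2 to 149.95 on Bic arrays, 151 to 157 on KCl arrays and 147 to 156 on control arrays. This sum also depended on the scaling. Relative to the control mean, it was 0.883 to 0.898 on KCl arrays (control 0.994 to 1.01) with quantile. With spike-in scaling it was 0.857 to 0.917 (0.948 to 1.09), so KCl lay below every control array with both. With median scaling and normexp the KCl and control arrays overlapped. Of the 10 neuronal markers, 1 rose and 4 fell under Bic, and 5 rose and 2 fell under KCl. Under KCl Nefm, a neurofilament, rose by 0.83 and Dcx, a marker of young neurons, fell by 0.80. The other Dcx probes gave -1.35 (well above background on 5 arrays) and 0.39 (on all 9), so the Dcx probes disagree on the direction. The part of these cells in the changes of Hes5 and the other genes was not tested.

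Likeness of pattern was measured by the root mean square difference over the 9 arrays, with each gene set relative to its control mean, among 14025 genes. Genes near Hes5 by this measure included Crip3 (0.33), Has3 (0.36), Dusp2 (0.38) and Tmem121b (0.40), with log2 changes of -1.44 to -0.27 under Bic and -2.57 to -1.88 under KCl. Closest to Hes1 were Cstf2 (0.09), Acot10 (0.09), Trp53bp1 (0.09), Slc7a8 (0.10) and Naa11 (0.10), all with changes of 0.28 to 0.38 under Bic and 0.63 to 0.80 under KCl. These likenesses are descriptions over 9 arrays that share 1 scaling.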

How the data were processed

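Total RNA of 3 Bic, 3 KCl and 3 control samples (replicates as numbered in the labels) was hybridised to 1-colour Agilent mouse arrays; per the labels' protocols, 100 ng of dephosphorylated RNA was labelled with Cyanine 3-pCp. The deposited intensity of each spot is Agilent's processed signal, made by Agilent's Feature Extraction (per the file headers 10.7.3.1, per the submitters' processing notes 10.5.1.1). It is background-subtracted and not normalized between arrays, and the deposited series values were equal to it. The raw median intensity of spot and background, also deposited, served only in the normexp alternative, since no mean signal column is in the scanner files, although the mean had been planned.

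From these intensities, log2 values minus the array's 75th percentile were computed over 43379 non-control spots of 45018, leaving out spots marked as outliers and averaging spots of a probe. Of 41174 probes, 26888 had 1 gene through their RefSeq accession (GRCm38.p6 table) and 14286 had no name. The filter kept 20992 probes that rose well over background on all arrays of 1 or more groups and were measured on 2 arrays of each group. The brightest probe stood for a gene, giving 14063 genes, fitted with limma 3.58.1 in R 4.3.3 on all 9 arrays (prior degrees of freedom 1.76, residual 6) with Benjamini-Hochberg adjustment over all genes. The median replicate SD was 0.064 on the log2 scale. The fit was tested on simulated data. The number of arrays, 3 a group, limits the precision.

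The members and the lists were chosen with earlier results of these data known. Named genes are the 10 members, the 2 largest called changes per pathway list and treatment, genes called in opposite directions, the 2 largest changes per marker list with markers never above background, and the 5 nearest patterns to Hes5 and Hes1. Some genes that this rule names are not reported here. Alternatives were normexp with an offset of 50, quantile, median and spike-in scaling (7 spike-ins), no and strict filters, kept outliers, the mean of probes, slide and replicate blocks, a trended robust prior and leaving out each array. Equal replicate numbers of Bic and control deviated together (correlations 0.40, 0.26 and 0.74 for numbers 1, 2 and 3), and each such pair also shares a slide. Unequal numbers of different groups on a shared slide had correlations of 0.16 to 0.33. Equal numbers of KCl and control, which share no slide, did not deviate together (-0.19, -0.15 and -0.57). For Bic and control, pairing by number and sharing a slide cannot be told apart. The main fit had no block, and the numbers were blocked in alternatives only. A replicate block on the Bic and control arrays alone, marker sums under each scaling and the mural sum without Tagln were added after seeing the data.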

Additional observations from a re-analysis of the deposited data

How the results depend on the processing

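Leaving out 1 array in turn gave 5281 to 6254 genes called under Bic (6242 with all arrays), 9232 to 9973 under KCl (10100) and 8208 to 8980 for KCl against Bic (9123), with 28 to 33, 50 to 55 and 41 to 47 pathway genes and 7 to 9 of the 10 members called under Bic, and 6 members above control under KCl each time. Normexp gave 823 genes under Bic (483 higher and 340 lower), 4135 under KCl and 2433 for KCl against Bic, with 4, 18 and 15 pathway genes and 1 member, Hes5. Spike-in scaling gave 2503 genes under Bic (1247 higher and 1256 lower), 14 pathway genes and 2 members, Hes5 and Hey2. Under Bic 39.2% of calls were higher, against 58.7% with normexp and 49.8% with spike-in scaling. Under KCl 5037 calls were higher and 5063 lower, against 2942 and 6301 with median and 2201 and 6288 with spike-in scaling; for KCl against Bic 5076 were higher and 4047 lower, against 3680 and 4882 with quantile, 2501 and 4866 with median, 1283 and 5220 with spike-in scaling, and 1099 and 1334 with normexp. Among pathway genes 31 were higher and 23 lower under KCl, against 8 and 10 with normexp, 20 and 30 with median, and 10 and 29 with spike-in scaling. For KCl against Bic 31 pathway genes were higher and 17 lower, against 21 and 21 with quantile, 19 and 22 with median and 10 and 24 with spike-in scaling. The cause was not tested.

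These signs turned. Under KCl against control, Hey1 was -0.017, -0.051 and -0.12 with normexp, median and spike-in scaling, Notch1 -0.051, Maml2 -0.036 and Neurl1a -0.066 with spike-in scaling, and Aph1c 0.48 and Neurod1 0.17 with normexp. For KCl against Bic, Hes6 was -0.041 and -0.14 and Notch1 -0.010 and -0.11 with median and spike-in scaling, Hey2 -0.070, -0.046, -0.15 and -0.028 with quantile, median, spike-in scaling and slide block, Dll1 0.11 and Notch3 0.0061 with normexp, and Notch3 -0.049 to 0.020 without 1 array, 0.020 being without Bic 3. Under Bic, Notch2 was 0.10 with the mean of probes.

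Dll1, Hes6, Hey1, Jag1 and Notch3 passed under Bic in 20 of 22 settings, Hey2 in 21, Notch2 in 13, Hes1 in 12 and Notch1 in none. With the replicate block over all 9 arrays, 5974 genes and 8 members were called under Bic, and with that block on the Bic and control arrays 6513 genes and 8 members; beyond the losses of Hes1, Notch2, Maml2 and Maml3 and the gain of Hes2, these blocks changed no call of a named gene.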
